A study of Rattus norvegicus with 8 samples.

Results

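The unfolded protein response and the ATF4 response were examined in perfused rat liver through 35 listed genes of endoplasmic reticulum (ER) protein folding, ER-associated degradation, ER stress sensing and the ATF4 branch. The genes were chosen by name from knowledge of the pathway, with earlier results of these data known. Of the 35, 32 had a probe set annotated with their symbol alone, among 14511 genes compared in all. Edem1, Ern1 and Sesn2 were not analysed here. Livers of male Wistar rats aged 6 to 10 weeks were perfused with Krebs-Henseleit buffer, a salt solution that resembles plasma. The buffer was normoosmotic (305 mosm/L) for 4 samples and hypoosmotic (225 mosm/L) for 4 samples, and all samples belong to the 180 min time point. In dilute buffer liver cells take up water and swell. Total RNA of homogenised liver was measured on Affymetrix whole-transcript arrays, so cells of all types contribute, and fewer cells of a type and less RNA per cell cannot be told apart. Separate animals for the samples of a group are not stated in the labels. The p-values therefore reflect how far these samples scatter, and that scatter may be technical.

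Proteins that enter the ER are folded there by chaperones and disulfide isomerases. When unfolded proteins build up, the sensors IRE1 (Ern1), ATF6 and PERK (Eif2ak3) respond. IRE1 splices the Xbp1 transcript, ATF6 is cut to release a transcription factor, and both raise chaperone and degradation genes. PERK phosphorylates the initiation factor eIF2 alpha, which lowers translation in general and raises that of ATF4. ATF4 is also raised by other eIF2 alpha kinases, for instance when amino acids are short, and it drives genes of amino acid synthesis. Hepatocytes secrete most plasma proteins and hold much ER.

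The DNA elements through which these factors are known to act are shown first, since the values of the genes that carry them are compared with each other later. Promoter sequences came from RefSeq (GRCr8) and held 27 of the 32 measured genes. The 250 bases upstream of each gene's annotated start were searched on both strands. The ER stress element (CCAAT, 9 bases of any kind, then CCACG), to which ATF6 binds with NF-Y, was found in 4 of the 27, against 0.126% of 11951 promoters of genes on the array. The ER stress element II (ATTGG, 1 base, CCACG) was found in 2 of 27, against 0.100%. The UPR element TGACGTGG, known for XBP1, was found in 1 of 27, against 0.669%. The C/EBP-ATF response element TGATGCAAT, known for ATF4, was found in 2 of 27, against 0.176%. Its looser form TGATGNAA, which overlaps every TGATGCAAT, was found in 4 of 27, against 2.65%. The listed genes include textbook targets of these factors, so these shares describe the list and are not a finding about the livers. A match of letters is not evidence of binding, and a window without a match says nothing about the factor.

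Capitals in the next 4 stretches mark the CCAAT and CCACG of the complete element, or their reverse complements ATTGG and CGTGG. The same letters outside a complete element stand in lower case. The stretches come from the measured members with the complete ER stress element. They lie at chr7:121789219-121789277 (plus strand, Creld2), chr14:84604538-84604596 (plus strand, Xbp1), chr19:40213117-40213173 (plus strand, Calr) and chr10:35158049-35158107 (minus strand, Canx).
Creld2: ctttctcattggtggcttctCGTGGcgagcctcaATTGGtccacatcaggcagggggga
Xbp1: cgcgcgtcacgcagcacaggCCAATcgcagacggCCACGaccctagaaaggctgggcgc
Calr: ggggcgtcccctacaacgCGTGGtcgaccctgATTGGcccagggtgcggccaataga
Canx: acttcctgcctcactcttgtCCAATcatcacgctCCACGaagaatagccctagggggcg

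Hyou1 (chr8:53602671-53602824, plus strand) held the ER stress element II at 2 places, and its UPR element overlaps the first of them. Herpud1 (chr19:10614801-10614911, minus strand) held an ER stress element II and the looser C/EBP-ATF form. Capitals mark these matches. Sdf2l1 (chr11:97376776-97376877, plus strand), the member that rose, held none of the 5 motifs, and its capitals mark the CCAAT letters on either strand.
Hyou1: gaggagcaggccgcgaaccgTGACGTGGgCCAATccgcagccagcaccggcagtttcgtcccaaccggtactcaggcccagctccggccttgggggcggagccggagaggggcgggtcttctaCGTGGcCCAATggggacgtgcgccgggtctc
Herpud1: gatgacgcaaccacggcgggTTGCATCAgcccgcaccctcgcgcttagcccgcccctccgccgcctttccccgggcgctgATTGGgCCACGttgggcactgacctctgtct
Sdf2l1: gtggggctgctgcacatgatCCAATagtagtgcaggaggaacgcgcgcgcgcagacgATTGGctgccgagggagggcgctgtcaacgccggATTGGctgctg

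The C/EBP-ATF response element stood in Fgf21 (chr1:105221492-105221540, minus strand) and Nupr1 (chr1:190645929-190645977, minus strand). The member Trib3 held only the looser form. So did the ATF4 target Chac1 (chr3:126795944-126795991, plus strand), which is not a member. Among the further listed genes, the full element also stood in Pycr1, Aars1 and Iars1. The looser form alone also stood in Jdp2, Slc7a1, Nars1, Mars1, Tars1 and Ppp1r15b. The 3 printed stretches, of Fgf21, Nupr1 and Chac1, read as the reverse complement, in capitals.
Fgf21: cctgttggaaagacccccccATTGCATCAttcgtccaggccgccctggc
Nupr1: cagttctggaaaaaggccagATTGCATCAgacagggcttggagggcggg
Chac1: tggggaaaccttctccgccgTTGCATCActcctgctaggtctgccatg

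Of the 32 genes, 1 rose, 0 fell and 31 did not pass between hypoosmotic and normoosmotic livers (limma, Benjamini-Hochberg adjusted p under 0.05 over all genes). Among all genes, 7.07% passed, 2.45% as rises and 4.62% as falls, beside 3.12% of members, a share that rests on 1 gene. Without adjustment, 9 of the 32 (28.1%) had a limma p under 0.05, 6 higher and 3 lower. Among all genes the share was 20.7% (9.77% higher and 10.9% lower). Whether the members differ from all genes in these shares was not tested. The 4 values of one group lay outside those of the other for 2 members, 1 higher and 1 lower, against 13.5% of all genes (5.33% higher and 8.21% lower). The median difference on the log2 scale (hypoosmotic mean minus normoosmotic mean) was 0.14 over the members and 0.02 over all genes. The count of members that passed ranged from 1 to 3 over the alternative fits, and the members concerned are named below.

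**Figure D1:**
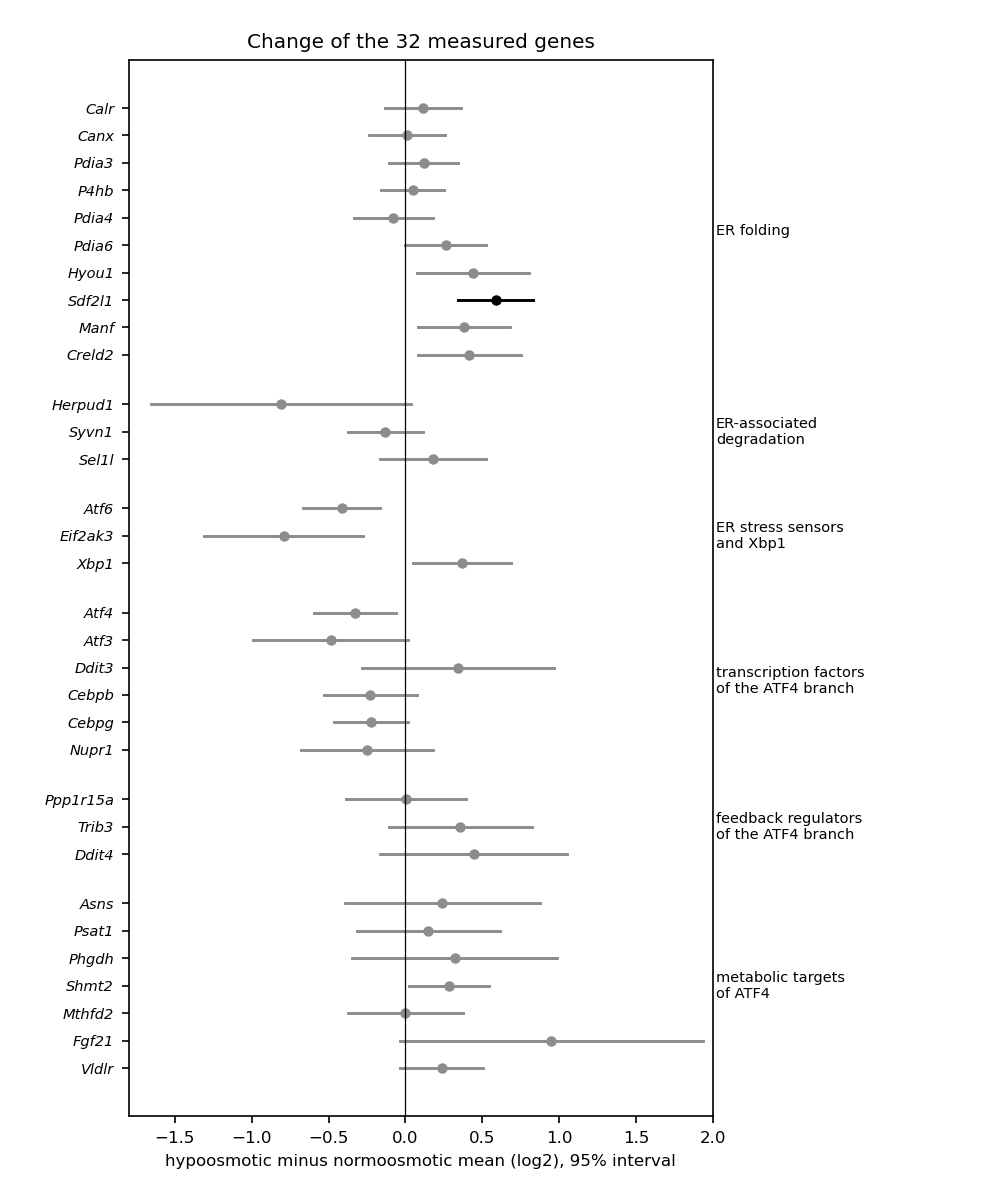
Difference between hypoosmotic and normoosmotic livers for the 32 measured genes (x axis, hypoosmotic minus normoosmotic mean of log2 expression), grouped by role. Points are limma estimates from 4 arrays per group, bars are 95% intervals for each gene alone, and black marks the gene with an adjusted p under 0.05. Sdf2l1, at 0.59, is the black point, while Atf6 and Eif2ak3 lie to the left of 0 and Fgf21 has the widest bar.

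The arrays had medians from 3.92 to 4.05 (log2). Hepatocyte markers had mean levels of 12.20 to 12.31 on normoosmotic and 12.18 to 12.24 on hypoosmotic arrays, and 0 of 8 passed, with 0 of 8 at an unadjusted limma p under 0.05. Of 8 listed markers of sinusoidal endothelium 5 were measured, and Stab1, Stab2 and Clec4g were not. Kdr alone rose (1 of 5, against 2.45% of all genes). Higher means in hypoosmotic livers were found for 5 of 5 (against 53.2%), and an unadjusted limma p under 0.05 for 3 (against 20.7%). The mean level of the 5 markers was 7.0 to 7.19 on normoosmotic and 7.24 to 7.70 on hypoosmotic arrays. For Kupffer cell markers the ranges were 6.10 to 6.58 and 6.07 to 6.86, and for stellate cell markers 6.12 to 6.25 and 5.92 to 6.65, with 0 of 8 passing in each list (limma; unadjusted p under 0.05 for 0 Kupffer cell and 2 stellate cell markers). The part of these cell types in the results below was not tested.

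Genes of ER folding were the group in which the rise occurred. Of 10 measured, 1 rose, 0 fell and 9 did not pass, 9 had higher means (8 after median centring), and the group's median difference was 0.19. Among all genes 2.45% rose and 53.2% had higher means. Sdf2l1 encodes an ER-resident partner of chaperone complexes. It read 5.66, 5.76, 5.39 and 5.43 on the normoosmotic arrays 1 to 4 and 6.17, 6.15, 6.20 and 6.07 on the hypoosmotic ones. The lowest hypoosmotic array was above the highest normoosmotic array, and the hypoosmotic values spanned a narrower range. Sdf2l1 went from 5.56 ± 0.18 to 6.15 ± 0.06 (SD, n = 4 each), a 1.5-fold rise with a difference of 0.59 ± 0.11 (SE) and a limma adjusted p of 0.0117. It passed in all 15 alternative fits, and when each array was left out in turn its adjusted p ranged from 0.0169 to 0.0415.

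Differences in 3 further chaperone-related genes had an unadjusted p under 0.05 but did not pass after adjustment. With Sdf2l1 these are 4 of the 10 folding genes, against 20.7% of all genes. Hyou1 encodes a large ER chaperone of the Hsp70 superfamily. It read 6.92, 7.01, 6.48 and 6.52 on normoosmotic and 7.41, 6.94, 7.41 and 6.93 on hypoosmotic arrays. The groups overlapped because normoosmotic replicate 2 lay above hypoosmotic replicates 2 and 4. Its difference was 0.44 ± 0.17 (SE; limma adjusted p = 0.150). Manf, a secreted ER stress-inducible protein, read 7.54, 7.38, 7.17 and 7.08, then 7.85, 7.41, 7.79 and 7.64. Only hypoosmotic replicate 2 fell within the range of the normoosmotic arrays, and the difference was 0.38 ± 0.14 (adjusted p = 0.129). Creld2, an ER stress-inducible protein with isomerase-like activity, read 5.66, 5.83, 5.63 and 5.54, then 6.20, 6.09, 6.39 and 5.64. Hypoosmotic replicate 4 was the array that overlapped. The difference in Creld2 was 0.41 ± 0.15 (adjusted p = 0.139), and without hypoosmotic replicate 4 it was 0.56 (adjusted p = 0.0231). Creld2 passed in no other alternative fit, and its adjusted p was 0.282 without normoosmotic replicate 4.

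The abundant folding machinery differed little. Calreticulin (Calr) and calnexin (Canx), the lectin chaperones of the ER, had differences of 0.11 (95% interval -0.14 to 0.36) and 0.01 (-0.23 to 0.26). Among the disulfide isomerases, Pdia3, which works with these lectins, had 0.12 (-0.10 to 0.34). P4hb, the founding disulfide isomerase and a subunit of prolyl hydroxylase, had 0.05 (-0.16 to 0.25). Pdia4 had -0.08 (-0.34 to 0.18), and Pdia6, which also binds IRE1, had 0.26 (-0.002 to 0.53) with a limma adjusted p of 0.245. These intervals are for each gene alone, without adjustment for the number of genes. For Calr, Canx, Pdia3, P4hb and Pdia4 they leave room for a difference of at most 0.36 on the log2 scale in either direction. Canx had the opposite sign after each array was centred on its median. Beside the complete ER stress elements printed above, the differences were 0.41 for Creld2, 0.37 for Xbp1, 0.11 for Calr and 0.01 for Canx. Of the further listed genes described below, Hspa5, Hsp90b1, Dnajc3 and Derl3 held the same element, with differences of 0.14, 0.16, 0.20 and -0.04. The level of Derl3 was near background, and Ero1b, which also held the element, was not analysed. Whether these genes differ from each other was not tested.

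**Figure D2:**
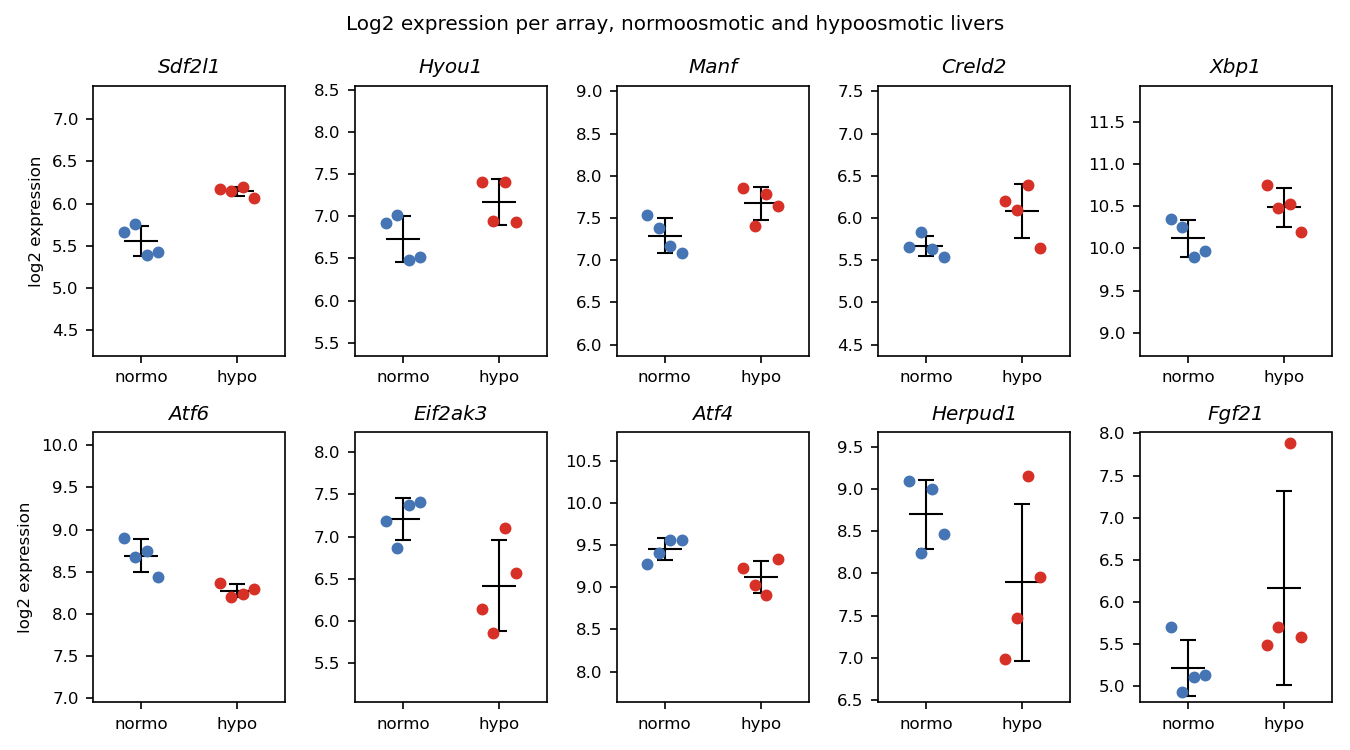
Log2 expression on each array for 10 of the genes, normoosmotic (normo, blue) and hypoosmotic (hypo, red), with points from left to right in replicate order. Horizontal bars are means and error bars SD over 4 arrays, and each panel spans the same range on its own log2 axis. Sdf2l1 and Atf6 are the genes whose groups do not overlap, and 1 hypoosmotic array stands far above the others in Fgf21, at 7.89.

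Of 3 measured genes of ER-associated degradation, which sends misfolded proteins back to the cytosol for the proteasome, 0 passed (limma; 0 at an unadjusted p under 0.05). Among all genes 7.07% passed and 20.7% had an unadjusted p under 0.05. Herpud1, an ER membrane component of the degradation complex, read 9.09, 8.24, 9.0 and 8.47 on normoosmotic and 6.98, 7.47, 9.16 and 7.96 on hypoosmotic arrays. Hypoosmotic replicate 3 was the highest of all 8 arrays, while the other 3 hypoosmotic arrays lay below every normoosmotic one. The difference was -0.81 ± 0.39 (SE; limma adjusted p = 0.268), and without hypoosmotic replicate 3 it was -1.23 (adjusted p = 0.0216). Without hypoosmotic replicate 1, the lowest array, it was -0.50 (0.526). The ubiquitin ligase gene Syvn1 (HRD1) had a difference of -0.13 ± 0.11 (adjusted p = 0.602). Its adaptor Sel1l had 0.18 ± 0.16 (adjusted p = 0.604). The highest value of Sel1l, 7.68, was also that of hypoosmotic replicate 3, and without that array the difference was 0.02. Leaving out the same array brought the difference of Syvn1 to -0.07. The sizes of all 3 differences thus depended on single arrays, while their signs were kept with any 1 array left out.

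Transcripts of the 2 measured stress sensors had lower means in hypoosmotic livers, and that of Xbp1 a higher one. Of these 3 genes 0 passed and 3 had an unadjusted limma p under 0.05, against 7.07% and 20.7% of all genes. Atf6 read 8.90, 8.67, 8.75 and 8.44 on normoosmotic and 8.37, 8.20, 8.23 and 8.30 on hypoosmotic arrays. All hypoosmotic values lay below all normoosmotic ones, by a gap of less than the normoosmotic SD. Its means were 8.69 ± 0.19 and 8.28 ± 0.08 (SD, n = 4 each), a difference of -0.42 ± 0.11 (SE) with a limma adjusted p of 0.0536, on the far side of the threshold. Atf6 passed after median centring (0.0415), without the dimmest 30% of genes (0.0446) and without normoosmotic replicate 4 (0.0375), and in no other of the 15 alternative fits.

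Eif2ak3, the gene of the kinase PERK, read 7.19, 6.86, 7.38 and 7.41, then 6.14, 5.86, 7.10 and 6.57. Hypoosmotic replicate 3 was again the highest of its group and the array that overlapped. The difference was -0.79 ± 0.24 (SE; limma adjusted p = 0.0705), and without hypoosmotic replicate 3 it was -1.02 (adjusted p = 0.0139). Eif2ak3 also passed with the replicate block (0.0217), after median centring (0.0496) and with array weights (0.0229). It passed in no other alternative fit. The adjusted p of Eif2ak3 was 0.121 after quantile normalization and 0.174 without normoosmotic replicate 3. Xbp1, the factor spliced by IRE1, read 10.35, 10.25, 9.90 and 9.97, then 10.75, 10.48, 10.53 and 10.19. Hypoosmotic replicate 4 overlapped, and the difference was 0.37 ± 0.14 (adjusted p = 0.166). A probe set for the whole transcript does not tell the spliced from the unspliced form, so these values bear on the amount of Xbp1 RNA and not on IRE1 activity. For Atf6 and PERK likewise the arrays give RNA, not cleavage or phosphorylation.

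Of 6 transcription factors of the ATF4 branch, 0 passed (limma; 1 at an unadjusted p under 0.05), against 7.07% and 20.7% of all genes. Lower means in hypoosmotic livers were found for 5 of the 6, and for 6707 of 14511 among all genes. The group's median difference was -0.24. Atf4 itself, which is controlled mainly at translation, read 9.28, 9.41, 9.56 and 9.56, then 9.23, 9.03, 8.91 and 9.33. The groups overlapped only through normoosmotic replicate 1 and hypoosmotic replicate 4, and the difference was -0.33 ± 0.12 (SE; limma adjusted p = 0.143). Atf3, a stress-induced repressor and activator, read 9.63, 9.48, 10.58 and 9.91, then 8.95, 9.51, 9.63 and 9.57. Normoosmotic replicate 3 was the highest and hypoosmotic replicate 1 the lowest array, and the difference was -0.48 ± 0.23 (adjusted p = 0.265). Without normoosmotic replicate 3 it was -0.26 (0.543).

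Ddit3 encodes CHOP, a factor induced by ATF4 under lasting stress. It read 5.64, 6.16, 6.26 and 5.99, then 5.91, 6.19, 7.37 and 5.95. Apart from replicate 3 the hypoosmotic arrays lay within the range of the normoosmotic ones. The difference of 0.34 ± 0.29 (adjusted p = 0.588) was 0.00 without that array, 0.22 without normoosmotic replicate 1 and 0.49 without hypoosmotic replicate 1. Cebpb and Cebpg, which pair with ATF4 on C/EBP-ATF elements, had differences of -0.23 ± 0.14 (adjusted p = 0.408) and -0.22 ± 0.11 (0.288). Nupr1, a stress-induced nuclear protein, had -0.25 ± 0.20 (0.557), and its lowest array was normoosmotic replicate 1, at 9.53 against 10.23 to 10.56 on the other 3. Its difference was -0.47 (0.0666) without that array and -0.13 (0.839) without normoosmotic replicate 3. For Cebpb it was -0.12 without normoosmotic replicate 1.

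Feedback regulators of the branch gave 0 of 3 genes past the threshold (limma; 0 at an unadjusted p under 0.05), against 7.07% and 20.7% of all genes. Ppp1r15a (GADD34), the phosphatase subunit that reverses eIF2 alpha phosphorylation, had the same mean of 7.72 in both groups, with a difference of 0.00 and a 95% interval of -0.39 to 0.39. Trib3, a pseudokinase that restrains ATF4, had 0.36 ± 0.21 (SE; adjusted p = 0.396). Its difference was 0.21 without normoosmotic replicate 1 and 0.52 (adjusted p = 0.195) without normoosmotic replicate 3. Ddit4 (REDD1), an inhibitor of mTORC1, had 0.44 ± 0.28 (adjusted p = 0.426). Normoosmotic arrays of Ddit4 ranged from 4.30 to 5.65, hypoosmotic ones from 5.08 to 6.02. With 1 array left out the difference ranged from 0.21 (without normoosmotic replicate 4) to 0.66 (without normoosmotic replicate 1), and it was 0.26 without hypoosmotic replicate 3.

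Among 7 metabolic targets of ATF4, 0 passed (limma; 1 at an unadjusted p under 0.05), against 7.07% and 20.7% of all genes. The group's median difference was 0.24. Shmt2, the mitochondrial serine hydroxymethyltransferase, was the gene under an unadjusted 0.05, with 8.44 ± 0.14 and 8.72 ± 0.17 (SD, n = 4 each) and an adjusted p of 0.202. Fgf21, a hormone of the liver in fasting and stress, read 5.70, 4.93, 5.11 and 5.13, then 5.49, 5.71, 7.89 and 5.58. Hypoosmotic replicate 3 lay far above all other arrays. The difference of 0.95 ± 0.45 (SE; adjusted p = 0.264) was the largest among the members, and without that array it was 0.38 (0.249). Vldlr, a lipoprotein receptor, had means of 2.79 and 3.03, both under 3.37, the 95th percentile of 53 odorant receptor genes taken as a near-background level, so its difference of 0.24 cannot be read as a change in amount.

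In 4 of the metabolic genes, Asns, Phgdh, Psat1 and Mthfd2, the SD within each group exceeded the difference between groups. Asns, asparagine synthetase, read 6.82, 5.92, 5.83 and 6.25, then 7.0, 6.82, 5.67 and 6.29. Phgdh, the first enzyme of serine synthesis, read 5.84, 4.89, 5.02 and 5.48, then 6.24, 6.16, 5.11 and 5.0. Psat1, the second enzyme, read 7.39, 7.01, 6.34 and 7.01, then 7.47, 7.12, 6.76 and 7.0. Mthfd2, a mitochondrial folate enzyme, read 6.46, 6.01, 5.89 and 6.05, then 6.46, 6.26, 5.83 and 5.86. In all 4 of these genes, a set picked out after their values were seen, replicate 1 was the highest array of each group. Nothing in the labels says that equal replicate numbers mark a shared animal or day. Differences were 0.24 for Asns, 0.32 for Phgdh, 0.15 for Psat1 and 0.00 for Mthfd2, with limma adjusted p-values from 0.646 to 1.00. With 1 array left out they ranged from 0.06 to 0.50 for Asns, from 0.12 to 0.53 for Phgdh, from -0.05 to 0.30 for Psat1 and from -0.12 to 0.12 for Mthfd2. The lowest value was found without hypoosmotic replicate 1 for Asns, Phgdh and Mthfd2 and without normoosmotic replicate 3 for Psat1.

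**Figure D3:**
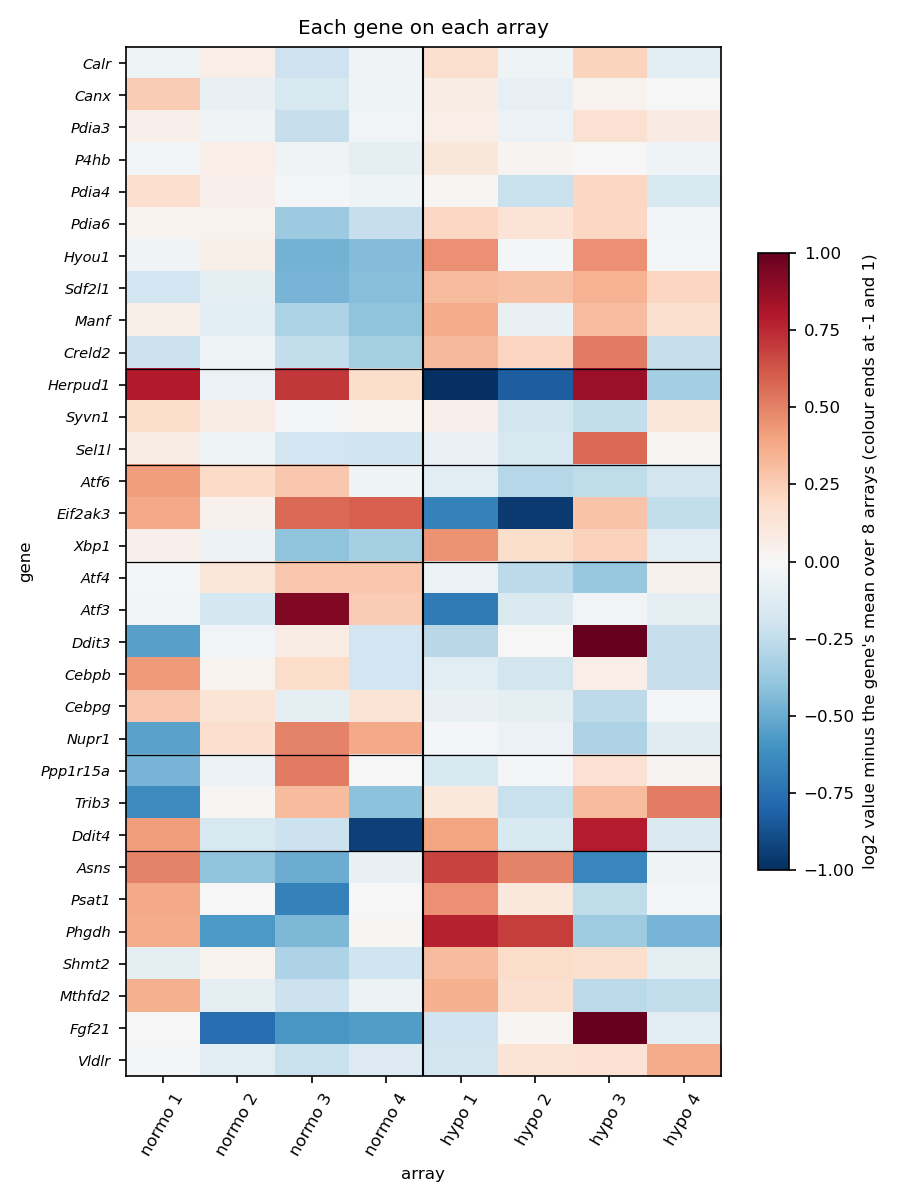
The 32 genes (rows, lines between role groups) on each of the 8 arrays (columns, normoosmotic left and hypoosmotic right of the line), coloured by log2 value minus the gene's mean over the 8 arrays. Colours end at -1 and 1. Sdf2l1 is lower on all left and higher on all right columns, Herpud1, Ddit3 and Fgf21 are deep red on the column of hypoosmotic replicate 3, and Asns, Psat1, Phgdh and Mthfd2 are red on both replicate 1 columns.

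Hypoosmotic replicate 3 was the array farthest from the group median for 12 of 32 members (37.5%), against 33.5% of all genes. Normoosmotic replicate 1 was farthest in its group for 15 members (46.9%), against 26.0% of all genes. Hypoosmotic replicate 3 also had the highest mean deviation of the markers of sinusoidal endothelium (0.41) and of stellate cells (0.40), and the part of those cells in its values was not tested. The mean deviation of the 10 ER folding genes from their gene means was 0.01, -0.01, -0.25 and -0.21 on normoosmotic arrays 1 to 4 and 0.21, 0.02, 0.25 and -0.01 on hypoosmotic ones. Normoosmotic replicates 3 and 4 were thus the low end and hypoosmotic replicates 1 and 3 the high end, with the other 4 arrays near 0.

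The rest of the pathway was followed through 76 measured of 81 further listed genes, of which 2 rose and 4 fell, or 7.89% past the threshold, against 7.07% of all genes. In the ER folding and translocation list 0 of 19 passed (limma; 3 at an unadjusted p under 0.05), against 7.07% and 20.7% of all genes. Of the 19, 18 had higher means in hypoosmotic livers (94.7%, against 53.2% of all genes), and the median difference was 0.15. Hspa5, the chaperone BiP and the standard readout of ER stress, read 11.18, 10.86, 11.08 and 10.87, then 11.18, 10.84, 11.28 and 11.27. Hypoosmotic replicate 2 was the lowest of all 8 arrays, while the other hypoosmotic arrays were at or above the highest normoosmotic one. The difference was 0.14 (95% interval -0.14 to 0.43; limma adjusted p = 0.615), or 0.25 without hypoosmotic replicate 2. Hsp90b1, the ER Hsp90, had 0.16 (-0.08 to 0.41).

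Dnajb9, a BiP cochaperone known as a target of spliced XBP1, had 8.11 ± 0.31 and 7.58 ± 0.22 (SD, n = 4 each). Its difference of -0.52 (limma adjusted p = 0.0802; 0.0428 with array weights) was the only negative one of the 19. Dnajb9 passed in no other alternative fit, and its adjusted p was 0.190 without normoosmotic replicate 3. Fkbp11, a peptidyl-prolyl isomerase of the secretory pathway, had 6.25 ± 0.21 and 6.76 ± 0.27 (adjusted p = 0.0694). Fkbp11 passed with the replicate block (0.0310), after quantile normalization (0.0436), with array weights (0.0498) and without hypoosmotic replicate 4 (0.0198). It passed in no other alternative fit, and its adjusted p was 0.176 without normoosmotic replicate 4. Of 13 further degradation genes 0 passed (limma; 2 at an unadjusted p under 0.05), against 7.07% and 20.7% of all genes. The 2 were Herpud2, with a difference of -0.30 (adjusted p = 0.134) and groups that did not overlap, and the lectin gene Erlec1, with 0.32 (0.169).

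Of 14 other sensors and stress kinases 0 rose and 2 fell, or 14.3%, against 7.07% of all genes (2.45% as rises and 4.62% as falls). Lower means were found for 11 of the 14, and for 6707 of 14511 among all genes. An unadjusted limma p under 0.05 was found for 4 (28.6%, against 20.7% of all genes). The 2 that fell are genes of the CREB3 family, whose proteins are ER- or Golgi-anchored transcription factors released by cleavage as ATF6 is. Creb3l2 (BBF2H7) read 7.66, 7.54, 7.45 and 7.20 on normoosmotic and 6.90, 6.90, 6.84 and 6.78 on hypoosmotic arrays. Groups were fully apart, and the 1.52-fold fall (-0.61 ± 0.11 SE; limma adjusted p = 0.0117) passed without any 1 of the 8 arrays. Creb3 (Luman) read 7.47, 7.59, 7.73 and 7.59, then 7.16, 7.17, 6.99 and 7.14. It fell 1.39-fold (-0.48 ± 0.10; adjusted p = 0.0172), and its adjusted p was 0.0599 without normoosmotic replicate 3. Creb3l3, the liver-enriched member of the family, was looked up after the values of the other two were seen and had a difference of -0.01 (95% interval -0.37 to 0.36). Whether Creb3l3 differed from the other two in its response was not tested.

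Of 30 other ATF4 targets 2 rose and 2 fell, or 13.3%, against 7.07% of all genes. An unadjusted limma p under 0.05 was found for 11 (36.7%, 5 higher and 6 lower), against 20.7% of all genes. The median difference was 0.01, with single genes from -0.81 to 0.79. Chac1, which breaks down glutathione and is induced through ATF4 and CHOP, read 5.56, 5.64, 5.05 and 5.03, then 5.67, 6.37, 6.17 and 6.24. The groups were apart by a narrow gap between normoosmotic replicate 2 and hypoosmotic replicate 1, and the rise was 1.73-fold (0.79 ± 0.19 SE; limma adjusted p = 0.0280). With 1 array left out Chac1 passed in 3 of 8 fits, and its adjusted p was highest without normoosmotic replicate 3 (0.0862). None of the other further listed genes with a C/EBP-ATF match passed. Their differences ran from -0.62 for Tars1 to 0.30 for Jdp2. Tars1 had a limma adjusted p of 0.0725, and 0.170 without normoosmotic replicate 1. It passed with the replicate block (0.0245) and without hypoosmotic replicate 1 (0.0325), and in no other alternative fit. The further listed genes with the full element had 0.02 (Pycr1), 0.01 (Aars1) and -0.23 (Iars1). A link between these matches and the differences was not tested. Gpt2, alanine aminotransferase of mitochondria, rose 1.42-fold (adjusted p = 0.0157; 0.0512 without normoosmotic replicate 3).

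Sqstm1 (p62), an autophagy receptor, went from 10.54 ± 0.10 to 10.06 ± 0.16 (SD, n = 4 each; limma adjusted p = 0.0280). Cars1, cysteinyl-tRNA synthetase, went from 7.44 ± 0.09 to 6.94 ± 0.18 (adjusted p = 0.0237). With 1 array left out each passed in 3 of 8 fits, with the highest adjusted p at 0.0879 without normoosmotic replicate 3 for Sqstm1 and at 0.0666 without normoosmotic replicate 1 for Cars1. After quantile normalization Sqstm1 had 0.0502. Atf5, a factor close to ATF4, had 0.34 (adjusted p = 0.141). Gdf15, a stress hormone, had 7.14 on hypoosmotic replicate 3 and 4.99 to 6.18 on the other 3, and its difference of -0.81 (0.203) was -1.15 (0.0272) without that array. Without hypoosmotic replicate 1, its lowest array, it was -0.43 (0.362). Slc7a11, the cystine transporter, had a difference of 0.00 with a 95% interval of -1.0 to 1.01, too wide to bound a change.

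**Figure D4:**
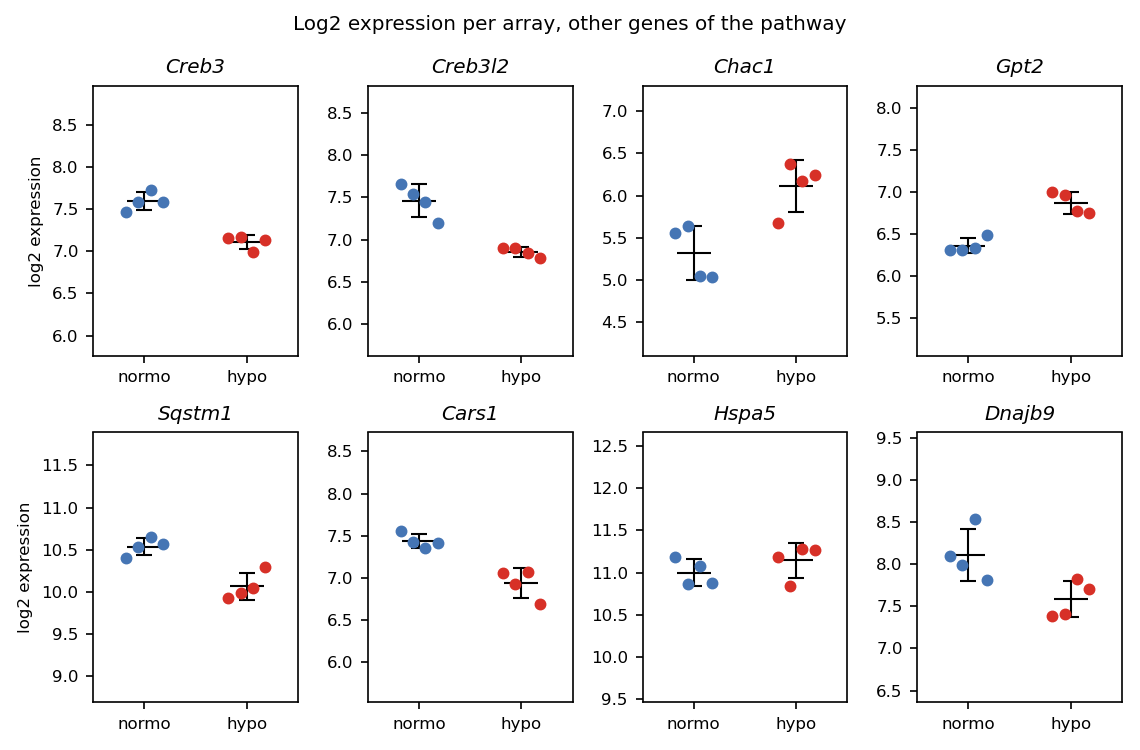
Log2 expression on each array for 8 further genes of the pathway, normoosmotic (normo, blue) and hypoosmotic (hypo, red), with points in replicate order, means as horizontal bars and SD over 4 arrays as error bars. Creb3, Creb3l2, Sqstm1 and Cars1 are lower and Chac1 and Gpt2 higher in hypoosmotic livers without overlap, while the groups of Hspa5 overlap.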

How the data were processed

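The authors deposited log2 expression values for 27596 probe sets on 8 arrays. The tools named per the submitters' processing notes are RMA, Expression Console and Transcriptome Analysis Console 4.0, without their roles. Because RMA brings arrays towards a common distribution, shifts common to most genes cannot be read from these values. The array medians still ran from 3.92 to 4.05 (log2). Groups and replicate numbers came from the sample titles. Probe sets with 1 symbol in the platform annotation (15316) were used, the one with the highest mean per gene. All 14511 genes were fitted with limma 3.58.1 under R 4.3.3 (two-sided, with group as the sole factor, lmFit then eBayes), followed by Benjamini-Hochberg adjustment. The fit was tested on simulated data. The number of arrays limits the precision. Tables, motif searches and plots were made with Python 3.11.15, pandas 2.3.3 and matplotlib 3.10.9. The members, gene lists and tests were chosen with earlier results of these data known. All members were named, with genes of the further lists past the threshold (or the 2 smallest p-values where none passed) and 7 fixed genes. The fit was repeated with a replicate block, quantile normalization, robust variances on an intensity trend, median centring, no dim genes, averaged probe sets, array weights and leaving out each array.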

Additional observations from a re-analysis of the deposited data

Results flagged for a closer look

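In 4 of 94 groups of 4 arrays examined, 1 array lay far from the other 3 (gap over the group's range above Dixon's 95% critical value), and about 1 in 20 groups does so by chance. Fgf21 read 7.89 on hypoosmotic replicate 3 and 5.49 to 5.71 on the others. Herpud2 read 6.31 on that array and 6.54 to 6.58 on the others, and Creb3 6.99 against 7.14 to 7.17. Gpt2 read 6.49 on normoosmotic replicate 4 and 6.31 to 6.33 on the others.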

How the results depend on the processing

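Sdf2l1 passed in all 15 alternative fits, and no named gene that passed in either fit changed sign. Members that did not pass but changed sign in some fits were Canx, Mthfd2, Ppp1r15a and Psat1. The number of members that passed was 1 with an intensity trend, with quantile normalization and with averaged probe sets. It was 2 with the replicate block, with array weights and without the dimmest 30% of genes, 3 after median centring, and from 1 to 3 with 1 array left out (2 without normoosmotic replicate 4 or hypoosmotic replicate 4, 3 without hypoosmotic replicate 3). For the other pathway genes it was 6, and from 1 to 7 with 1 array left out (1 without normoosmotic replicate 3, 3 without normoosmotic replicate 4 or hypoosmotic replicate 2). Over all genes it was 1026 and from 468 (without normoosmotic replicate 3) to 1051 (without hypoosmotic replicate 4), with 626, 675 and 563 without normoosmotic replicates 1, 2 and 4 and 545 without hypoosmotic replicate 2. Median centring moved the share of falls over all genes from 65.3% to 75.7%. Whether the replicate numbers pair the arrays was not settled by the labels or by the values. Deviations of same-numbered arrays from their group means correlated at 0.01, 0.26, 0.12 and 0.06, and 3 of the 4 normoosmotic arrays correlated best with their own number. With the replicate block 1029 genes, 2 members (Sdf2l1 and Eif2ak3) and 9 other pathway genes passed. The background correction could not be varied from the deposited values, and slide and scan were not used here.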
